A study of Schizosaccharomyces pombe with 6 samples.

Results

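The RNAs described here are the short noncoding RNAs of fission yeast (Schizosaccharomyces pombe): genes with an identifier of the SPNCRNA series and a listed length under 600 nucleotides. They were chosen by that identifier, by the length the count table lists, and by a summed count of at least 30 over the 6 libraries, and SPNCRNA.103 and SPNCRNA.214 were left out by name. Of 1535 SPNCRNA genes, 378 were listed under 600 nucleotides, and 250 of these fell below 30 counts, 117 of them at 0 in every library. This left 128 RNAs of the 7268 genes in the table. Just inside the count limit were SPNCRNA.93 with 30 counts and SPNCRNA.292 and SPNCRNA.324 with 31 each, and just outside it SPNCRNA.268 and SPNCRNA.1075 with 27 each. Just inside the length limit were SPNCRNA.1452 at 598 and SPNCRNA.1418 at 595 nucleotides, and just outside it SPNCRNA.1088 at 601 and SPNCRNA.1689 at 602.

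RNA was taken from untreated cells in log phase in the rich medium YE5S, as 2 biological duplicates each of WT (972), Δsaf5 and Δcwf12. saf5 encodes the fission yeast relative of pICln, a chaperone of Sm proteins, and cwf12 the relative of Isy1, a splicing factor of the active spliceosome. The libraries came from a stranded mRNA kit, which starts from polyadenylated RNA. SPNCRNA.98 (srp7, the RNA of the signal recognition particle), an RNA that lacks a poly(A) tail, had 0 counts in all libraries.

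Noncoding transcription in fission yeast covers much of the genome, often on the strand opposite a coding gene or in the space before a promoter. The nuclear exosome, RNA interference and chromatin factors keep most of these RNAs at a low level in growing cells. The YTH protein Mmi1, which binds the hexamer UNAAAC, delivers meiotic mRNAs and some long noncoding RNAs to the exosome. Transcription of a noncoding RNA through a promoter can also repress or open the gene downstream, as is known for genes of phosphate and glucose metabolism in this yeast.

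Library totals ran from 9113139 to 12054198 counts. The 128 RNAs together took 3217 to 4709 counts of a library, or 0.0325% to 0.0517% of it, and the values of the low ones carry a wide counting error. The libraries labelled Δcwf12 had 41 and 32 counts on cwf12, against 556 and 531 in WT. The libraries labelled Δsaf5 had 220 and 249 counts on saf5, against 323 and 234 in WT, so the counts of the targeted gene went against this label and every direction given for Δsaf5 rests on the label. Of 4 vegetative markers (cdc2, act1, tub1, cdc13) 0 were called in any comparison by edgeR or DESeq2, with 1 at an unadjusted p under 0.05 in Δsaf5 and 3 in Δcwf12 against WT. Of 11 meiotic markers 4 were called higher (6.2% of all genes tested) and 1 lower (2.49%) in Δsaf5 than in WT, and 1 higher in Δcwf12 (7.31%). Their summed level in CPM (counts scaled to a common library size) was 62.9 to 68.8 in WT. It was 91.6 to 93.9 in Δsaf5 and 74.7 to 78.2 in Δcwf12, with no marker at 0 in any library. Their part in the results was not tested.

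Of the 128 RNAs, 125 were found in the RefSeq annotation of the assembly ASM294v3. All of them had 1 exon. They ran from 92 to 598 nucleotides with a median of 494.5, and 65 lay on chromosome I, 41 on II and 19 on III. Antisense to a coding gene were 52, of which 20 lay wholly inside it. Another 42 overlapped only a noncoding gene on the other strand, 2 overlapped a gene on their own strand, and 29 overlapped no annotated gene. The median GC content was 32.87%, against 35.71% in 953 SPNCRNA genes of 600 nucleotides or more that met the same count limit. Searched in the sense strand of the transcript, the hexamer TNAAAC (the DNA spelling of the Mmi1 core) was found in 76 of the 125, or 60.8%. It was found in 61.5% of 50792 genome windows of 495 bases, so the short RNAs held it about as often as any stretch of that length. Matched at 90% identity to the rest of the genome, only SPNCRNA.1376 had a copy over its whole length, among 2 other hits. Reads of SPNCRNA.1376 that match several places could thus be lost or misplaced. How the counting treated such reads is not given in the sources used here.

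The sequences of 8 RNAs on which the results turn are printed as read from RefSeq ASM294v3, 5′ to 3′ on the transcribed strand, all from RNAs that overlap no coding gene. SPNCRNA.121 is whole. For the others 150 bases are given, around the first TNAAAC or, where there is none, from the 5′ end. Capitals mark TNAAAC. The first 3 were higher in a deletion than in WT.
SPNCRNA.1255 (chrIII:2023112-2023261, minus strand): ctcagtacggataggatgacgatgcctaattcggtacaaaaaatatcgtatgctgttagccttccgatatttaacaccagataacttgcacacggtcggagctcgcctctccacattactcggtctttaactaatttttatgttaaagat
SPNCRNA.58 (chrI:1393174-1393323, minus strand): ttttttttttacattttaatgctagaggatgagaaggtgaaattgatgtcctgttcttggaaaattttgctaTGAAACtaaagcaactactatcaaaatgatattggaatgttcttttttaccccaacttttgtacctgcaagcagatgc
SPNCRNA.451 (chrIII:49993-50142, plus strand): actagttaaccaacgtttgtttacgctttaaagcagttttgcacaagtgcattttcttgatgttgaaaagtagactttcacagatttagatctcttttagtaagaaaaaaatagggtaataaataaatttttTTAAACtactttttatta
The next 4 were lower in both deletions, SPNCRNA.1310 beside alr2 and the others upstream of hsr1.
SPNCRNA.1310 (chrII:109615-109764, minus strand): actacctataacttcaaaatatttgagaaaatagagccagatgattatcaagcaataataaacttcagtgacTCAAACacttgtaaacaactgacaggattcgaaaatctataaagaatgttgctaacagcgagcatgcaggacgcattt
SPNCRNA.780 (chrI:1954037-1954186, minus strand): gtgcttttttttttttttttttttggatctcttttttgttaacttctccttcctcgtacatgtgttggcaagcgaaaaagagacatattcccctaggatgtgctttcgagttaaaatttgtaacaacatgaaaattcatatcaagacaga
SPNCRNA.782 (chrI:1956223-1956372, minus strand): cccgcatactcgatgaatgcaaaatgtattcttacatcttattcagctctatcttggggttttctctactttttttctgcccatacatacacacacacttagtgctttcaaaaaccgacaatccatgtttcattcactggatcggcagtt
SPNCRNA.784 (chrI:1956641-1956790, plus strand): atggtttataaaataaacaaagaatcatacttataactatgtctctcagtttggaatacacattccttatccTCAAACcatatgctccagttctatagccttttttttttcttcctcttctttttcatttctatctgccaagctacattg
The last was called lower in Δcwf12 and not in Δsaf5.
SPNCRNA.121 (chrIII:2308667-2308904, plus strand): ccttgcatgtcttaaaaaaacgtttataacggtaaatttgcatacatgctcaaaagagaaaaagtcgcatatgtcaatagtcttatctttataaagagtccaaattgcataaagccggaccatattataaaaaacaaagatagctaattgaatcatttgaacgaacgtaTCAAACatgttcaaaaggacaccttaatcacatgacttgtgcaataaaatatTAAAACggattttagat
Of these 8, SPNCRNA.121 held TNAAAC at 2 positions, SPNCRNA.58, SPNCRNA.451, SPNCRNA.1310 and SPNCRNA.784 at 1, and the other 3 did not hold it. RNAs that rose and RNAs that fell were found on both sides of that split.

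As a group the short RNAs were higher in both deletions than in WT, and more of them in Δsaf5. Their summed level, in CPM scaled by the TMM factors of the fit, was 350.1 and 341.7 in WT. It was 468.0 and 470.9 in Δsaf5 and lay between these at 390.3 and 428.0 in Δcwf12, with no overlap of strains. In such bulk samples a change in the mix of cells and a change of RNA per cell cannot be told apart. With the 10 largest RNAs left out, the order of strains was the same (WT 245.7 and 241.3, Δcwf12 261.6 and 287.6, Δsaf5 330.6 and 322.9). Over all 128, the mean CPM was higher in Δsaf5 than in WT for 93 (72.7%, against 51.8% of the 6105 genes with a summed count of 30 or more) and higher in Δcwf12 than in WT for 80 (62.5%, against 49.6%). Both libraries of Δsaf5 lay above both of WT for 69 (38% of all genes did so) and below both for 18 (35.4%). For Δcwf12 these counts were 57 (37.9%) and 32 (37.5%).

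The median log2 ratio to WT, taken on mean CPM plus a pseudocount of 0.1 over all 128 RNAs, was 0.55 in Δsaf5 and 0.34 in Δcwf12. For the 953 longer SPNCRNA genes it was 0.37 and 0.51, and for 4972 coding genes −0.03 and −0.04. So the shift away from WT was shared with the longer noncoding RNAs. The order of the deletions was not: the short RNAs had the larger median in Δsaf5 and the longer ones in Δcwf12. Whether the classes differ in this was not tested. Nor was the order the same in every group of short RNAs. Among those tested below, the 22 that overlap no gene had edgeR median log2 fold changes of 0.56 in Δsaf5 and 0.65 in Δcwf12. The 48 antisense to a coding gene had 0.65 and 0.2, and the 34 that overlap only a noncoding gene 0.31 and −0.16. By length, the medians were 0.18 and 0.14 under 300 nucleotides, 0.68 and 0.81 from 300 to under 450, and 0.56 and 0.17 from there on.

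**Figure D1:**
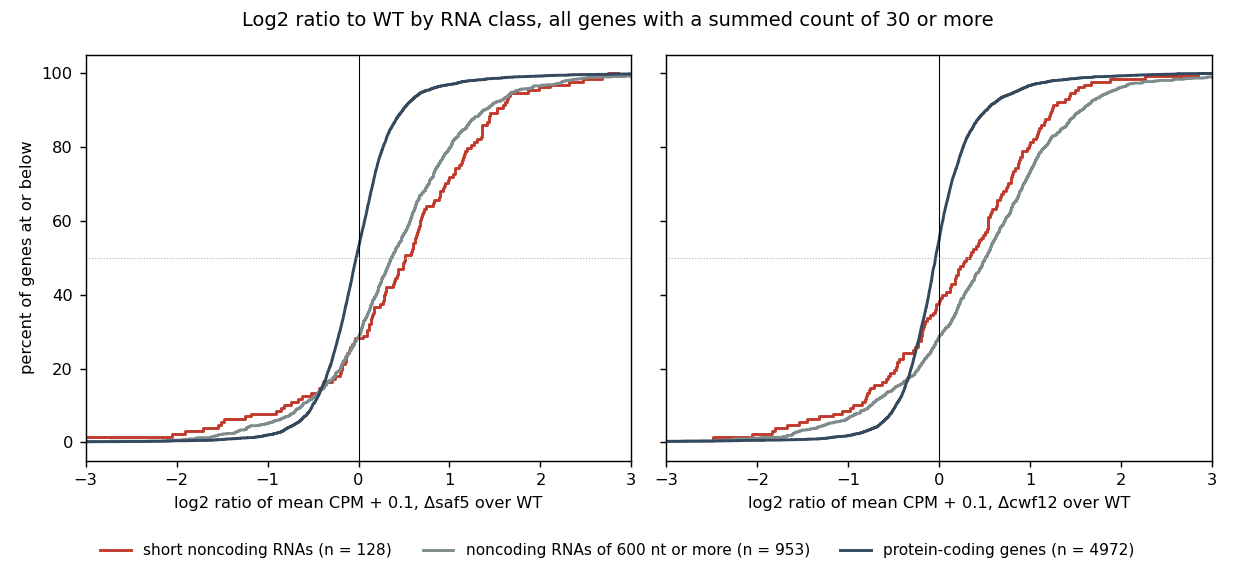
Cumulative percent of genes (vertical axis) at or below each log2 ratio of mean CPM plus 0.1 to WT (horizontal axis), for Δsaf5 on the left and Δcwf12 on the right. Lines are the 128 short noncoding RNAs, the 953 SPNCRNA genes of 600 nucleotides or more and 4972 coding genes with a summed count of 30 or more. Both noncoding lines lie to the left of the coding line at the low end and to the right of it from there on, with medians of 0.55 and 0.37 in Δsaf5 and 0.34 and 0.51 in Δcwf12.

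Of the 128, 107 passed the filter on low counts and were tested with edgeR in a fit of all 6018 genes that passed. A gene was called where its Benjamini-Hochberg adjusted p was under 0.05 and its log2 fold change was 1 or more in either direction. The 21 not tested had summed counts of 30 to 48. The filter asks for enough counts in 2 libraries, and 42 of the 107 did not reach that level in WT, so an RNA that is high in a deletion passes more easily than one that is low there, and the counts of calls below are descriptions.

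In Δsaf5 against WT, 31 of the 107 were called higher, beside 6.2% of all genes tested, and 7 lower, beside 2.49%. DESeq2, run on the same table, called 14 higher (4.96% of all genes) and 7 lower (2.32%), and the 14 were all among the 31 of edgeR. In Δcwf12 against WT, 16 were called higher, beside 7.31% of all genes, and 9 lower, beside 2.64%, and DESeq2 called 11 (6.22%) and 6 (2.47%). In Δsaf5 against Δcwf12, 19 were called higher, beside 3.95%, and 6 lower, beside 4.62%, and DESeq2 called 14 (3.22%) and 7 (4.33%). A filter that does not look at strain, a summed count of at least 60, left 94 short RNAs. Of these 26 were called higher (5.91% of all genes) and 7 lower (2.45%) in Δsaf5, and 16 higher (7.29%) and 7 lower (2.54%) in Δcwf12. Among the 55 that passed the filter in every strain, 8 were called higher and 3 lower in each deletion. Of all genes that passed in every strain, 4.43% were called higher and 2.25% lower in Δsaf5, and 6.16% and 2.15% in Δcwf12. Without the second Δsaf5 library the calls in Δsaf5 were 16 higher (5.48% of all genes) and 4 lower (2.29%), and without the first Δcwf12 library the lower calls in Δcwf12 were 5 (2.48%).

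Both deletions share the WT libraries as control. Side by side, 9 RNAs were called higher in both (2.86% of all genes) and 4 lower in both (0.931%). In Δsaf5 alone 21 were called higher (3.21%) and 2 lower (1.45%), and in Δcwf12 alone 6 higher (4.34%) and 4 lower (1.58%). SPNCRNA.1444 and SPNCRNA.845 were called in opposite directions (0.116% of all genes like the one, 0.133% like the other). The remaining 59 were called in neither.

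**Figure D2:**
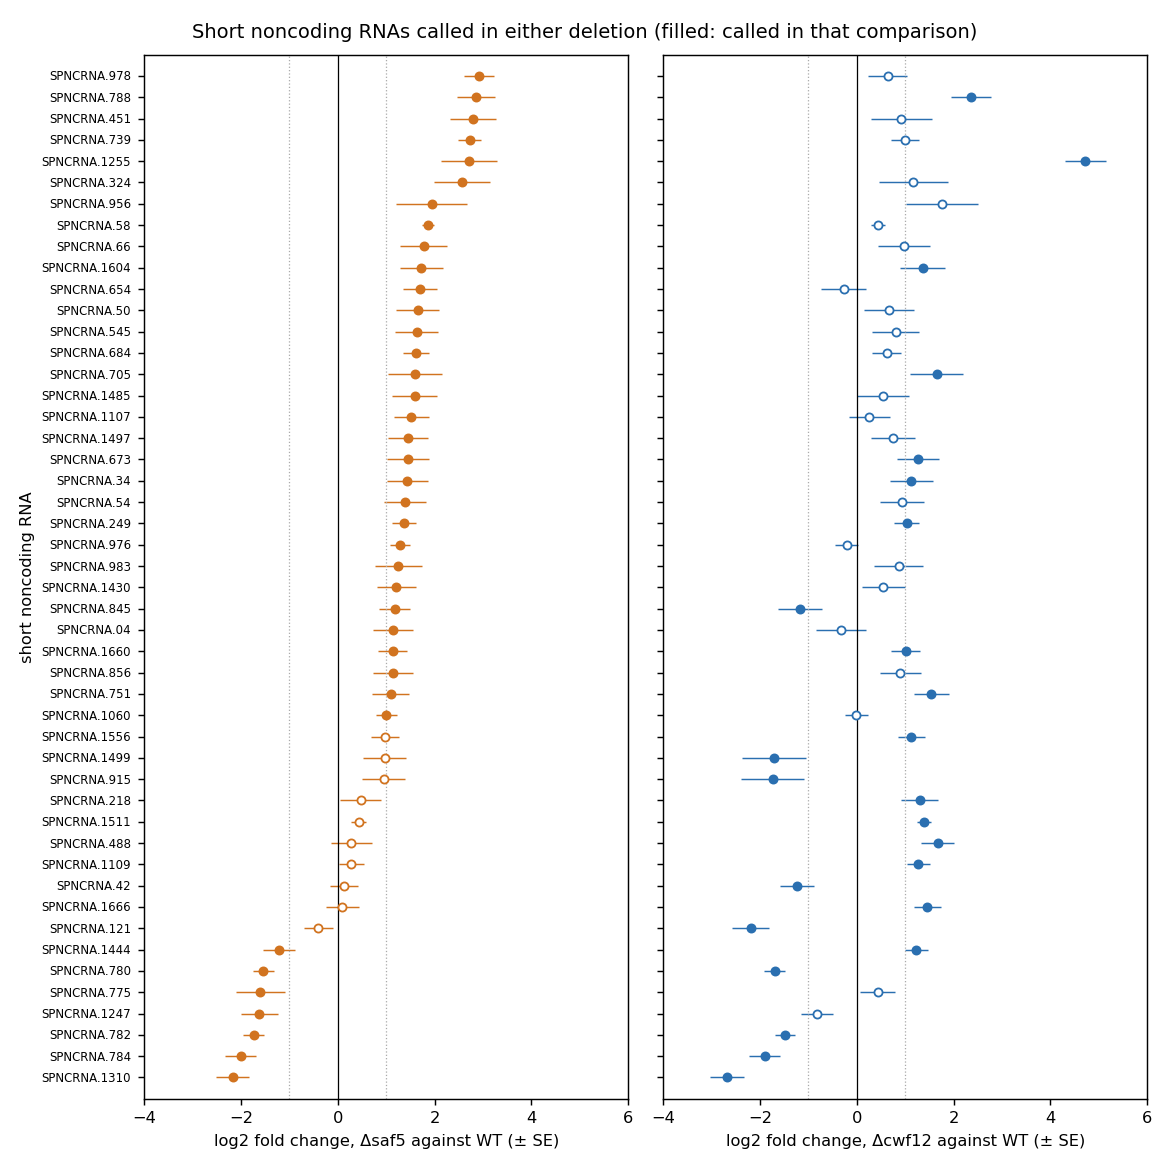
Log2 fold change against WT (horizontal axis, points, with bars of 1 SE from the edgeR fit) of the 48 short noncoding RNAs called in Δsaf5 (left) or Δcwf12 (right), in rows ordered by their value in Δsaf5. Filled points are called in that comparison, open points are not, and dotted lines mark a log2 fold change of 1 in size. SPNCRNA.978 is at the top of the left panel at 2.92 and SPNCRNA.1310 at the bottom at −2.17.

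The RNAs with the largest rise in Δsaf5 had few counts in WT. SPNCRNA.978 had WT counts of 9 and 18, Δsaf5 counts of 99 and 118 and Δcwf12 counts of 21 and 27. Its log2 fold change in Δsaf5 was 2.92 ± 0.30 (SE, n = 2 per strain, edgeR adjusted p = 1.2e-05), and the value in Δcwf12, 0.65, did not pass the test. SPNCRNA.978 lies antisense to the coding gene SPAC27F1.10, whose level per kilobase, 1.68 CPM, was below that of the RNA, 8.35. SPAC27F1.10 had a log2 fold change of −0.13 ± 0.40 in Δsaf5, too uncertain to show a change or its absence. The coding gene SPAC27F1.05c, 750 bases away, had 1.30 in Δsaf5 (edgeR adjusted p = 3.8e-06) and 0.56 in Δcwf12. SPNCRNA.739, inside the antisense strand of cyp1 (a cyclophilin, a prolyl isomerase), had WT counts of 16 and 17, Δsaf5 counts of 108 and 124 and Δcwf12 counts of 41 and 34. Its log2 fold change was 2.73 ± 0.24 in Δsaf5 (edgeR adjusted p = 2.8e-06). Both Δcwf12 libraries also lay above WT, at a log2 fold change of 0.995 ± 0.29, just under the fold limit. cyp1 itself had a log2 fold change of −0.36 in Δsaf5 and 0.96 in Δcwf12.

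SPNCRNA.58 (prl58) had the highest level in Δsaf5 of the RNAs called higher there. The prl genes were first listed as polyadenylated transcripts without a long open reading frame. SPNCRNA.58 had WT counts of 86 and 87, Δsaf5 counts of 344 and 323 and Δcwf12 counts of 143 and 123, so all 3 strains were apart. The log2 fold change was 1.87 ± 0.13 in Δsaf5 (edgeR adjusted p = 3.7e-07) and 0.44 ± 0.15 in Δcwf12 (edgeR adjusted p = 0.025, under the fold limit). The call in Δsaf5 held in every alternative tried. It overlaps no gene. Its annotated start lies 76 bases from itr2, an inositol transporter gene transcribed the other way, and its end adjoins SPAC20G8.02. itr2 had a log2 fold change of 0.79 in Δsaf5 and −0.14 in Δcwf12.

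Of the 13 RNAs with a prl name, 10 were tested, and 6 of them were called higher in Δsaf5: prl58, SPNCRNA.66 (prl66), SPNCRNA.50 (prl50), SPNCRNA.34 (prl34), SPNCRNA.54 (prl54) and SPNCRNA.04 (prl4). Of all short RNAs tested 29% were called higher there, and of all genes 6.2%. Apart from prl58 these rested on 2 to 10 counts per WT library, and DESeq2 called only prl58 and prl66. The call of prl34 was lost without the first Δsaf5 library, that of prl66 without the second WT library or either Δsaf5 library, that of prl50 without the second WT or second Δsaf5 library, that of prl54 without the first WT or first Δsaf5 library, and that of prl4 without any one of the WT and Δsaf5 libraries. prl66 had WT counts of 10 and 2, Δsaf5 counts of 23 and 21 and Δcwf12 counts of 13 and 14. prl50 had WT counts of 8 and 3, Δsaf5 counts of 18 and 19 and Δcwf12 counts of 12 and 8. It lies 140 bases from meu13, a gene of meiotic recombination that had WT counts of 5 and 12, Δsaf5 counts of 44 and 53 and Δcwf12 counts of 50 and 45. In Δcwf12, prl34 was called higher, a call lost with DESeq2 and without any one of the WT and Δcwf12 libraries, and SPNCRNA.42 (prl42) lower, a call lost without the first WT library (−0.86) and without the first Δcwf12 library (−1.12). The other 3, prl21, prl25 and prl33, and the single named snoRNA, SPNCRNA.530 (sno530), had 1 to 13 counts in each library and were not tested.

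**Figure D3:**
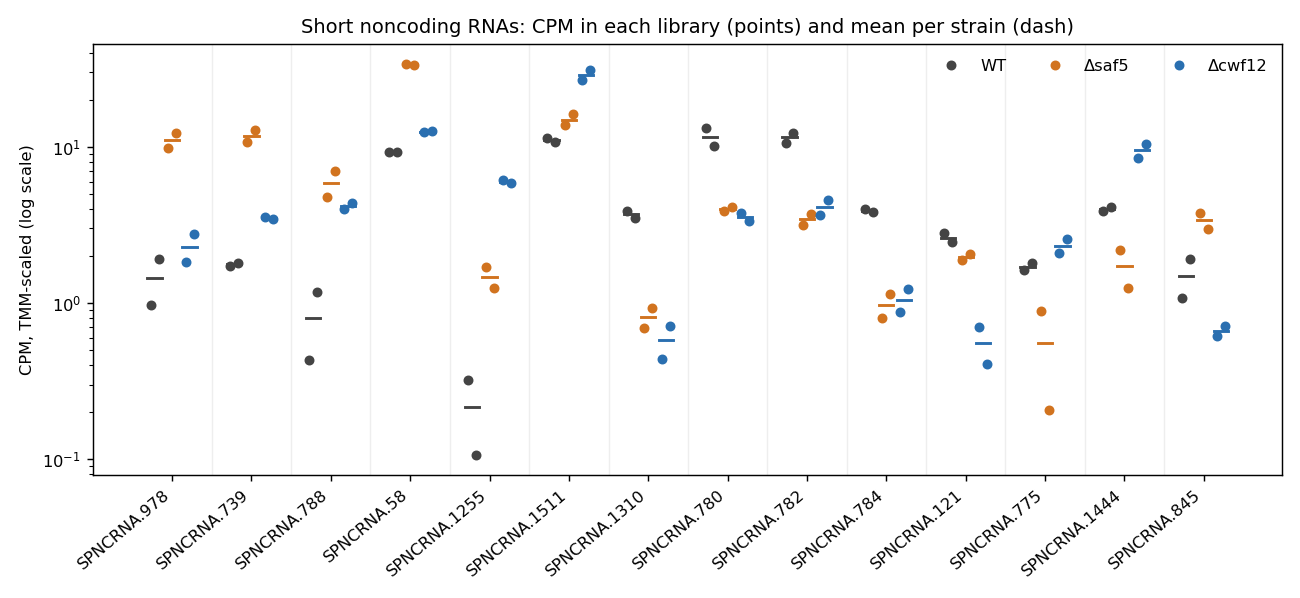
Level of 14 short noncoding RNAs in CPM scaled by the TMM factors (vertical axis, log scale). Points are single libraries of WT, Δsaf5 and Δcwf12, and dashes are the mean of the 2 libraries of a strain. SPNCRNA.58 stands at 33.8 ± 0.56 CPM in Δsaf5 (SD, n = 2), apart from both other strains, and SPNCRNA.1310, SPNCRNA.780, SPNCRNA.782 and SPNCRNA.784 are lower in both deletions than in either WT library.

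Other RNAs rose in both deletions. SPNCRNA.788, which overlaps the antisense strand of cyc2, had WT counts of 4 and 11, Δsaf5 counts of 48 and 68 and Δcwf12 counts of 46 and 43. Its log2 fold change was 2.86 ± 0.39 in Δsaf5 and 2.37 ± 0.41 in Δcwf12 (edgeR adjusted p = 9.7e-05 and 0.00046), and the deletions were not called against each other. cyc2 had log2 fold changes of 0.09 and −0.05. SPNCRNA.1255, which lies 891 bases from wtf20, a member of the wtf family of spore killer genes, was close to absent in WT with 3 and 1 counts. It had 17 and 12 counts in Δsaf5 and 70 and 57 in Δcwf12, so the strains stood in 3 separate steps. Against WT the ratio of summed counts, scaled for library size, was 6.87 in Δsaf5 (95% counting interval 2.41 to 26.9) and 27.9 in Δcwf12 (10.6 to 104). Against each other the deletions differed by a log2 fold change of −2.01 (edgeR adjusted p = 8.4e-05). wtf20 had WT counts of 31 and 18, Δsaf5 counts of 126 and 126 and Δcwf12 counts of 87 and 76, higher in both deletions but with the larger value in Δsaf5.

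Further RNAs with few WT counts were called higher in Δsaf5 and not in Δcwf12. SPNCRNA.451, on chromosome III between hsp3101 and SPCC757.04, had WT counts of 3 and 2, Δsaf5 counts of 18 and 20 and Δcwf12 counts of 7 and 4, a ratio to WT of 7.2 in Δsaf5 (95% counting interval 2.83 to 23.4). SPNCRNA.324, which lies 101 bases from mei3, the inducer of meiosis, had WT counts of 1 and 2, Δsaf5 counts of 10 and 10 and Δcwf12 counts of 4 and 4, a ratio of 6.32 (1.87 to 33.2), and its call was lost with DESeq2. SPNCRNA.956 had WT counts of 2 and 3, Δsaf5 counts of 10 and 11 and Δcwf12 counts of 17 and 3, and its call in Δsaf5 was also lost with DESeq2. Its ratio to WT was close in the deletions, 3.98 in Δsaf5 (1.46 to 13.5) and 3.52 in Δcwf12 (1.28 to 12). The log2 fold change between them, 0.18, was not called. These intervals cover counting error only. SPNCRNA.451, SPNCRNA.324 and SPNCRNA.956 reached 10 counts in both libraries of a strain only in Δsaf5. They thus passed the filter through the strain where they were called higher, and their calls and intervals are descriptions. With summed counts of 54, 31 and 46 they were not tested under the filter of a summed count of at least 60.

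Further RNAs were called higher in Δcwf12. SPNCRNA.1511, antisense to part of the aminopeptidase gene ape2, had WT counts of 106 and 101, Δsaf5 counts of 139 and 156 and Δcwf12 counts of 308 and 303. Its log2 fold change was 1.38 ± 0.14 in Δcwf12 (edgeR adjusted p = 7.1e-06) and 0.43 ± 0.16 in Δsaf5 (edgeR adjusted p = 0.036, under the fold limit). ape2 had −0.10 and −0.11. SPNCRNA.1109, antisense to mug135, had WT counts of 39 and 28, Δsaf5 counts of 42 and 44 and Δcwf12 counts of 108 and 77, and was called in Δcwf12 at 1.27 ± 0.23 (edgeR adjusted p = 0.00064). SPNCRNA.1666 lies in the space between ilv5 and met6, genes of amino acid synthesis, and had WT counts of 14 and 17, Δsaf5 counts of 17 and 18 and Δcwf12 counts of 47 and 50. It was called higher in Δcwf12 at 1.46 ± 0.28 (edgeR adjusted p = 0.00099), with Δsaf5 at 0.10. SPNCRNA.488 had WT counts of 12 and 9, Δsaf5 counts of 11 and 16 and Δcwf12 counts of 47 and 30, and lies 1262 bases from gdh2, a glutamate dehydrogenase gene, whose log2 fold changes were 2.43 (Δcwf12) and 0.85 (Δsaf5). SPNCRNA.751 and SPNCRNA.705 were called higher in both deletions. SPNCRNA.751 had WT counts of 13 and 22, Δsaf5 counts of 41 and 38 and Δcwf12 counts of 44 and 71, and SPNCRNA.705, antisense to fap2, had WT counts of 5 and 3, Δsaf5 counts of 9 and 17 and Δcwf12 counts of 12 and 17. With DESeq2 the call of SPNCRNA.751 in Δsaf5 and both calls of SPNCRNA.705 were lost. The Δsaf5 call of SPNCRNA.751 was also lost without the first WT library or without one of the Δsaf5 libraries, and both calls of SPNCRNA.705 without the second WT library or the second library of that deletion.

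The falls shared by both deletions lay in 2 places. Of the 4 RNAs that were called lower in both deletions, 3 (SPNCRNA.780, SPNCRNA.782 and SPNCRNA.784) lie 484 to 3286 bases upstream of hsr1 on chromosome I. hsr1 encodes a zinc finger transcription factor of the stress response. SPNCRNA.780 had WT counts of 122 and 95, Δsaf5 counts of 39 and 40 and Δcwf12 counts of 43 and 33, with log2 fold changes of −1.53 ± 0.22 and −1.70 ± 0.22 (edgeR adjusted p = 0.00012 and 4.1e-05). SPNCRNA.782 had WT counts of 99 and 116, Δsaf5 counts of 32 and 36 and Δcwf12 counts of 42 and 45, with −1.73 ± 0.22 and −1.48 ± 0.21 (edgeR adjusted p = 5e-05 and 8.6e-05). SPNCRNA.784, the nearest to hsr1 at 484 bases, had WT counts of 37 and 36, Δsaf5 counts of 8 and 11 and Δcwf12 counts of 10 and 12, with −2.01 ± 0.33 and −1.90 ± 0.32 (edgeR adjusted p = 0.00033 for each). For all 3 both deletions lay below both WT libraries, the deletions were not called against each other, and every call held with DESeq2 and with any library left out.

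The gene downstream fell as well. hsr1 had WT counts of 1385 and 1340, Δsaf5 counts of 630 and 618 and Δcwf12 counts of 686 and 573, with log2 fold changes of −1.20 ± 0.07 and −1.30 ± 0.07 (edgeR adjusted p = 6.9e-08 and 2.1e-08). From the end of pcs2 to the start of hsr1 the annotation holds 8 noncoding RNAs on both strands, the 3 short ones and 5 longer. Of the longer ones SPNCRNA.777 and SPNCRNA.781 were called lower in Δsaf5, at −1.52 and −1.20, and SPNCRNA.777, SPNCRNA.779 and SPNCRNA.781 in Δcwf12, at −1.22, −1.39 and −1.29. SPNCRNA.783, which crosses the start of hsr1 on the other strand, was not called and had −0.43 and 0.16. pcs2, at the far side, had −0.25 and −0.22. SPNCRNA.780 and SPNCRNA.779, SPNCRNA.782 and SPNCRNA.781, and SPNCRNA.784 and SPNCRNA.783 overlap on opposite strands. The strand setting of the counting is not given in the sources used here, so reads of the 2 genes of such a pair cannot be told apart.

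**Figure D4:**
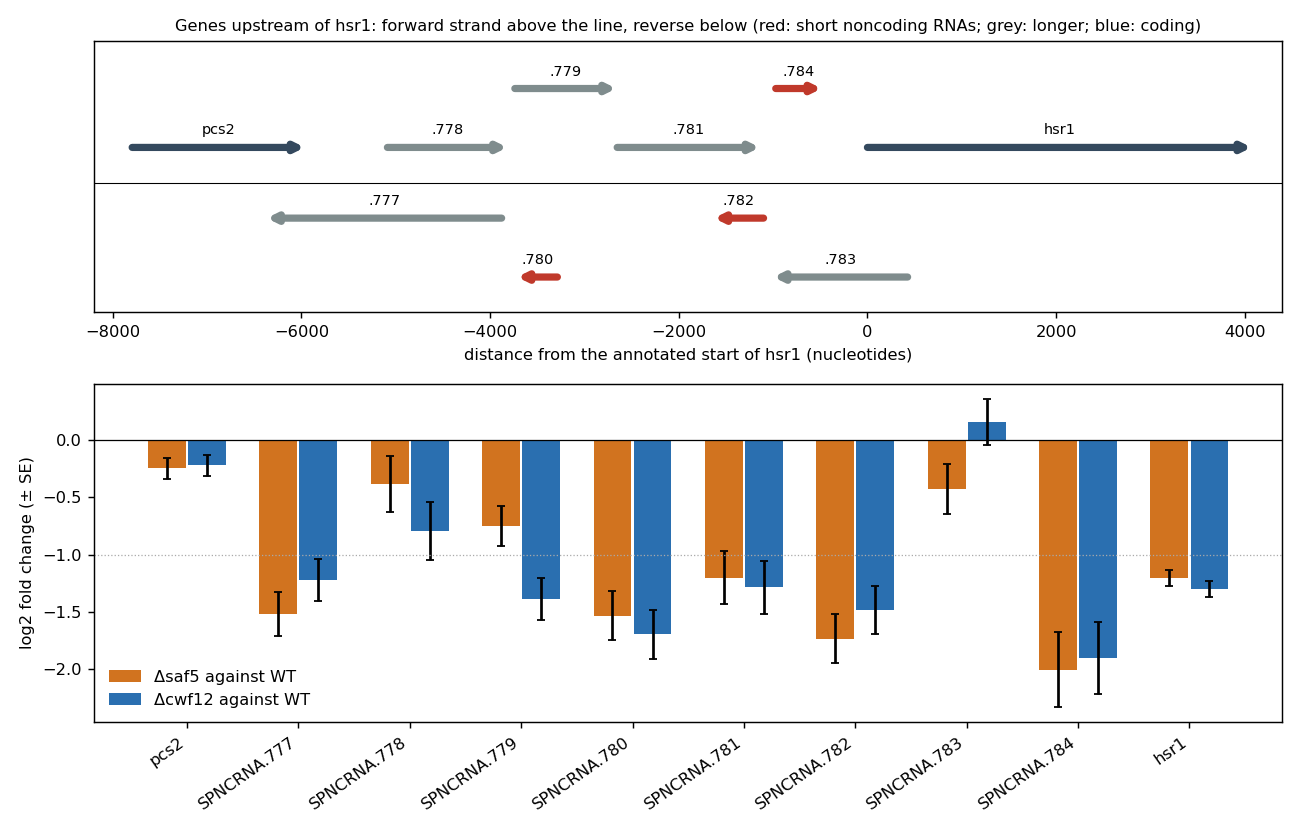
Upper panel, genes between pcs2 and hsr1 by distance from the annotated start of hsr1 in nucleotides (horizontal axis), drawn to scale with arrows in the direction of transcription. Lower panel, log2 fold change against WT (vertical axis, bars, with 1 SE from the edgeR fit) of each gene in Δsaf5 and Δcwf12. SPNCRNA.780, SPNCRNA.782, SPNCRNA.784 and hsr1 lie below −1 in both deletions, while pcs2 and SPNCRNA.783 do not reach it in either.

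The fourth RNA lower in both deletions lies near the left end of chromosome II. SPNCRNA.1310 had WT counts of 36 and 33, Δsaf5 counts of 7 and 9 and Δcwf12 counts of 5 and 7, with log2 fold changes of −2.17 ± 0.34 and −2.68 ± 0.36 (edgeR adjusted p = 0.00026 and 6.2e-05). It lies 51 bases past the end of alr2, an alanine racemase gene, which had WT counts of 78 and 106, Δsaf5 counts of 18 and 12 and Δcwf12 counts of 21 and 17. On its other side lies aat1, an amino acid transporter gene, with WT counts of 1328 and 1419, Δsaf5 counts of 479 and 432 and Δcwf12 counts of 1348 and 1190. So SPNCRNA.1310 fell in both deletions, like alr2, while aat1 was called lower only in Δsaf5, and the difference of aat1 between the deletions was itself called (log2 fold change −1.37, edgeR adjusted p = 2.2e-08). SPNCRNA.292, 726 bases beyond aat1, had WT counts of 8 and 8, Δsaf5 counts of 0 and 0 and Δcwf12 counts of 7 and 8. With Δsaf5 set to a floor of 3 counts per library, it was 2.81-fold lower than WT, a value without a counting interval. With 31 counts in all SPNCRNA.292 did not pass the filter and was not tested. The next coding gene, the flocculin gene pfl7, had WT counts of 278 and 299, Δsaf5 counts of 43 and 49 and Δcwf12 counts of 49 and 63. On the far side of alr2, SPBC359.01 and SPNCRNA.291 were called lower in Δsaf5 at −1.10 and −1.64, with −0.73 and −0.88 in Δcwf12. SPNCRNA.1309, which overlaps alr2 on the other strand, was called lower in Δcwf12 at −1.08 and had −0.46 in Δsaf5. The falls near SPNCRNA.1310 were thus not limited to alr2.

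Further RNAs were called lower in one of the deletions. SPNCRNA.775, 184 bases upstream of aru1, had WT counts of 15 and 17, Δsaf5 counts of 9 and 2 and Δcwf12 counts of 24 and 25. Its log2 fold change in Δsaf5 was −1.60 ± 0.51 (edgeR adjusted p = 0.02), a call lost with DESeq2 and without the second Δsaf5 library (−0.93), and the deletions differed by −2.03 (edgeR adjusted p = 0.0031), a call kept with DESeq2. SPNCRNA.1247, antisense to SPCC18.03, had WT counts of 22 and 34, Δsaf5 counts of 12 and 7 and Δcwf12 counts of 17 and 19, a log2 fold change of −1.63 ± 0.38 in Δsaf5 (edgeR adjusted p = 0.0039), a call lost without the second Δsaf5 library. Its Δcwf12 libraries also lay below both of WT, at −0.82 (edgeR adjusted p = 0.058), and the deletions were not called against each other. SPNCRNA.121 had WT counts of 26 and 23, Δsaf5 counts of 19 and 20 and Δcwf12 counts of 8 and 4. Its log2 fold change in Δcwf12 was −2.19 ± 0.39 (edgeR adjusted p = 0.00049). Its neighbour dpe2, a coding gene 809 bases away, had WT counts of 401 and 314, Δsaf5 counts of 702 and 644 and Δcwf12 counts of 1870 and 1647. dpe2 was called higher in Δcwf12. SPNCRNA.915 and SPNCRNA.1499 were called lower in Δcwf12 on 2 to 5 and 1 to 3 counts per library, and both calls were lost with DESeq2 and in 5 of the 6 fits that leave out a library. SPNCRNA.915 had WT counts of 16 and 5 and Δsaf5 counts of 23 and 20. SPNCRNA.1499 had WT counts of 6 and 6 and Δsaf5 counts of 12 and 13. Their difference between the deletions was called with log2 fold changes of 2.68 and 2.67 (edgeR adjusted p = 0.0016 and 0.0017) and kept with DESeq2. Both RNAs reached 10 counts in both libraries of a strain only in Δsaf5. They thus passed the filter through the strain where they were higher, and these calls are descriptions. SPNCRNA.1499 was not tested under the filter of a summed count of at least 60, and SPNCRNA.915 kept its call there.

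For 2 RNAs the deletions went in opposite directions. SPNCRNA.1444 had WT counts of 36 and 39, Δsaf5 counts of 22 and 12 and Δcwf12 counts of 98 and 102. It was called lower in Δsaf5 at −1.21 ± 0.32 and higher in Δcwf12 at 1.23 ± 0.23 (edgeR adjusted p = 0.0077 and 0.00082), and the fall was −0.87 and not called without the second Δsaf5 library. The coding genes on its sides are isp4, an oligopeptide transporter gene 4934 bases away, with log2 fold changes of 0.68 in Δsaf5 and −1.49 in Δcwf12, and the ribosomal protein gene rpl26, 131 bases away, with −0.22 and 0.07. SPNCRNA.845 had WT counts of 10 and 18, Δsaf5 counts of 38 and 29 and Δcwf12 counts of 7 and 7. It was called higher in Δsaf5 at 1.17 ± 0.33 and lower in Δcwf12 at −1.17 ± 0.46 (edgeR adjusted p = 0.01 and 0.049), and neither of these calls was kept with DESeq2.

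The most abundant short RNAs, apart from SPNCRNA.58 and SPNCRNA.1511, stayed under the fold limit. SPNCRNA.907 had WT counts of 174 and 143, Δsaf5 counts of 116 and 130 and Δcwf12 counts of 192 and 160. SPNCRNA.1452, antisense to mug124, had WT counts of 105 and 98, Δsaf5 counts of 112 and 123 and Δcwf12 counts of 144 and 117. SPNCRNA.59 had WT counts of 104 and 111, Δsaf5 counts of 163 and 178 and Δcwf12 counts of 154 and 156. With SPNCRNA.1014, SPNCRNA.242 and SPNCRNA.1477 these make the 8 with the highest median CPM. The 6 had log2 fold changes from −0.68 (SPNCRNA.242) to 0.68 (SPNCRNA.1014) in Δsaf5. Per kilobase of listed length, the short RNAs had a median level of 4.02 CPM, the longer SPNCRNA genes 4.22 and coding genes 38.27, so a low level was common to noncoding RNAs of either length.

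By position, the calls in Δsaf5 were spread over the groups, each beside 6.2% of all genes. Higher in Δsaf5 were 17 of 48 tested RNAs antisense to a coding gene, 7 of 22 that overlap no gene and 7 of 34 that overlap only a noncoding gene. In Δcwf12 these counts were 7, 4 and 5, beside 7.31% of all genes. Of the 17 tested RNAs that lie wholly inside an antisense coding gene, 6 were called higher in Δsaf5 and 3 in Δcwf12. Within 50 coding genes of a chromosome end 14 RNAs were found, of which 10 were tested, with 2 called higher and 1 lower in Δsaf5. Of RNAs with TNAAAC 19 of 64 (29.7%) were called higher in Δsaf5, and of those without it 12 of 40 (30%). In Δcwf12 the counts were 7 of 64 (10.9%) and 9 of 40 (22.5%). Whether these shares differ was not tested.

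Where a short RNA lies antisense to a coding gene, the change of the RNA and of its partner were compared over the 48 pairs in which both were tested. Across pairs, Pearson's r of the log2 fold changes was −0.08 in Δsaf5 (Spearman's rho −0.08) and 0.09 in Δcwf12 (rho 0.12), and r of their levels per kilobase on the log scale was 0.07. Genes of 1 set of libraries are not independent replicates, and these values are descriptions. Of the 17 RNAs called higher in Δsaf5, the partner was called in 0 cases by edgeR or DESeq2, with 2 partners lower and 3 higher at an adjusted p under 0.05 and a smaller fold, and the same numbers at an unadjusted p under 0.05. Over all genes 25.5% were lower and 24.7% higher at that adjusted p, and 2.49% were called lower and 6.2% higher. Of the 7 RNAs called higher in Δcwf12, 1 partner was called, fap2 at 1.219, higher like SPNCRNA.705. Of all genes 7.31% were called higher there and 2.64% lower. Over the 48 pairs 1 partner was called in Δsaf5 (mug135, 1.375) and 2 in Δcwf12 (fap2, and msi2 at 1.459). Of the 8 called higher in Δsaf5 than in Δcwf12, 1 partner was called, cyp1 at −1.322, opposite to SPNCRNA.739 (all genes: 3.95% higher, 4.62% lower). The coding partner's level per kilobase was a median of 7.9 times that of the RNA, and it was below it in 3 pairs. With the strand setting not given, reads of a partner in the count of an RNA cannot be told apart from its own.

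The genes that act on such RNAs were looked at as mRNAs. A list of 32 RNA surveillance genes held the exosome, its cofactors, the Mmi1 complex and the RNA decay genes exo2, dhp1, din1, dcp1, dcp2 and lsm1. Of these 32 genes, 0 were called in either deletion by edgeR or DESeq2. By edgeR, 6.2% of all genes tested (3.03% of coding genes) were called higher and 2.49% (1.96%) lower in Δsaf5. In Δcwf12 these shares were 7.31% (3.31%) and 2.64% (1.78%), which leave room for few calls in a list of 32. At an unadjusted p under 0.05, 3 were higher and 10 lower in Δsaf5, and 2 higher and 10 lower in Δcwf12. At an adjusted p under 0.05 without the fold limit 2 were higher and 9 lower in Δsaf5, and 1 higher and 10 lower in Δcwf12. By this measure, the share of all genes was 24.7% higher and 25.5% lower in Δsaf5, with 25.5% and 25% in Δcwf12. The surveillance genes had log2 fold changes between −0.72 (exo2) and 0.53 in Δsaf5 and between −0.43 and 0.37 in Δcwf12. mmi1 had WT counts of 802 and 813, Δsaf5 counts of 855 and 776 and Δcwf12 counts of 806 and 695, and the exosome nuclease gene rrp6 had 1764 and 1748, 1608 and 1652, and 1910 and 1574. Of 19 chromatin genes that restrain noncoding transcription 0 were called by edgeR or DESeq2, beside the same shares of genes called. At an unadjusted p under 0.05, 4 were higher and 8 lower in Δsaf5, and 2 higher and 9 lower in Δcwf12. At an adjusted p under 0.05 without the fold limit, 3 were higher and 7 lower in Δsaf5, and 2 higher and 7 lower in Δcwf12, beside the same shares of all genes. Among them set2, the H3K36 methyltransferase gene, had log2 fold changes of −0.20 in Δsaf5 and −0.51 ± 0.07 in Δcwf12 (edgeR adjusted p = 7.9e-05). Gene counts do not show how these transcripts were spliced.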

How the data were processed

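RNA-seq was analysed from 6 libraries, 2 each of WT, Δsaf5 and Δcwf12. The deposited values are raw counts of reads for each gene, which per the labels' processing notes and the methods were made with Trimmomatic, STAR, the ASM294v2 genome and HTSeq; annotation release, feature type and strand setting are not given in the sources used here. The deposited length per gene, a score without a stated definition, set the length limit. The short RNAs and the gene lists were chosen with earlier results of these data known.

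Counts were fitted with edgeR 4.0.16 in R 4.3.3 (filterByExpr with a minimum count of 10, TMM factors, 1 coefficient per strain over all 6 libraries, quasi-likelihood F-test, Benjamini-Hochberg adjustment, calls where the adjusted p was under 0.05 and the log2 fold change 1 or more in size). Each SE was the fitted log2 change over the root of its F value. Positions and sequences came from RefSeq ASM294v3, matched by identifier; copies were searched with BLAST+ 2.17.0. Named RNAs were the 6 largest and smallest called changes per deletion, 3 each between deletions, the 8 most abundant, those with a symbol, those called in opposite directions and those at the limits; SPNCRNA.956, SPNCRNA.1109 and SPNCRNA.1376 were named after their values were seen. Same-numbered replicates did not deviate together (correlation of deviations 0.04, −0.013 and −0.028), so the numbers were not taken as pairs. Alternatives were DESeq2 1.42.0, RLE factors, other filters and folds, a replicate block and each library left out. The fit was tested on simulated data.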

Additional observations from a re-analysis of the deposited data

Results flagged for a closer look

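For 2 short RNAs the deletions moved in opposite directions, with both libraries of one deletion above and both of the other below the WT libraries. SPNCRNA.1444 was lower in Δsaf5 than in Δcwf12 by a log2 fold change of −2.45, with 22 and 12 counts in Δsaf5 and 98 and 102 in Δcwf12. SPNCRNA.845 was higher in Δsaf5 than in Δcwf12 by 2.34, with 38 and 29 counts against 7 and 7. The RNAs were chosen by their opposite calls against WT, so the comparison of the deletions in the same libraries restates that choice, and the difference was not tested on other data. The fall of SPNCRNA.845 in Δcwf12 against WT was lost in 12 of 14 alternatives and the fall of SPNCRNA.1444 in Δsaf5 was lost without the second Δsaf5 library. The rise of SPNCRNA.845 in Δsaf5 was kept in 9 of 14 alternatives. It was lost with DESeq2 and without the first WT or the first Δsaf5 library, among others.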

How the results depend on the processing

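The count of short RNAs called depended on the test, the filter and single libraries. Higher in Δsaf5 than in WT were 31, against 14 with DESeq2, 9 with at least 10 counts in every library, 11 in a test against 1.5-fold and 7 among RNAs that overlap no gene. Lower in Δsaf5 were 7, against 3 with at least 10 counts, 12 with no minimum fold and 2 without overlap. Higher in Δcwf12 were 16, against 9 with at least 10 counts, 26 with no minimum fold, 8 against 1.5-fold and 4 without overlap, and lower 9, against 3, 5 against 1.5-fold and 2 without overlap. Higher in Δsaf5 than in Δcwf12 were 19, against 8 with at least 10 counts, 12 with a summed count of 60, 11 against 1.5-fold and 6 without overlap, and lower 6, against 3 with at least 10 counts and 11 with no minimum fold. The stricter filters and the restriction to no overlap test fewer RNAs: 107 were tested in the fit reported, 128 with DESeq2, 57 with at least 10 counts, 94 with a summed count of 60 and 22 without overlap. Of those tested, 29%, 10.9%, 15.8%, 27.7% and 31.8% were higher in Δsaf5, beside 6.2%, 4.96%, 4.61% and 5.91% of all genes under the first 4. The median log2 fold change of those tested was 0.54 in Δsaf5 (0.32 with at least 10 counts, 0.56 without overlap). It was 0.34 in Δcwf12 (0.182 with at least 10 counts, 0.651 without overlap) and 0.30 between the deletions (0.157 without overlap). The cause was not tested. Of 76 values of single named RNAs, called or not, DESeq2 took 14 under the thresholds and the RLE factors 0. Only a called value can be taken under, so 76 is more than the number at risk. Over all short RNAs, DESeq2 kept 14 of the 31 higher and 6 of the 7 lower calls in Δsaf5. In Δcwf12 it kept 10 of 16 and 6 of 9.

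Leaving out each library in turn gave 16 to 31 higher and 4 to 8 lower in Δsaf5, 14 to 17 and 5 to 10 in Δcwf12, and 14 to 21 and 5 to 9 between the deletions, with medians of 0.494 to 0.583, 0.224 to 0.447 and 0.199 to 0.413. A fit without 1 library assumes that the lone library of its strain varies like the others. Of the 31 RNAs higher in Δsaf5, 11 kept the call in all 6 such fits and 5 in every alternative with the fold limit. For the 16 higher in Δcwf12 these counts were 8 and 5. Among named RNAs 4 values near 0 changed sign: over these fits SPNCRNA.1666 in Δsaf5 ran from −0.025 to 0.237, SPNCRNA.42 in Δsaf5 from −0.173 to 0.492, SPNCRNA.488 in Δsaf5 from −0.039 to 0.554 and SPNCRNA.907 in Δcwf12 from −0.188 to 0.125.

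With the replicate number as a block 31 were higher and 7 lower in Δsaf5, 17 and 7 in Δcwf12, and 19 and 6 between the deletions. The numbers do not pair the cultures. Single counts of a few reads limit what can be said of any RNA with under 10 counts per WT library.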
